A study of Mus musculus with 10 samples.

Results

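The genes described here are the receptors through which interleukin-3 (IL-3), IL-5, granulocyte-macrophage colony-stimulating factor (GM-CSF) and granulocyte colony-stimulating factor (G-CSF) act on myeloid cells, together with the kinase and the transcription factors that carry their signal. They comprise 10 of the 20556 gene names in the peak tables: Csf2rb, Csf2rb2, Csf2ra, Il3ra, Il5ra, Csf3r, Jak2, Stat3, Stat5a and Stat5b. Each was taken by its name in the tables, where a peak carries the name of the gene with the nearest transcription start. This gave 159 of 246468 peaks over the 4 marks, with 39 of 53500 for H3K4me3, 46 of 67733 for H3K27ac, 51 of 81980 for H3K4me1 and 23 of 43255 for H3K36me3. The cells were neutrophils sorted from mice and not cultured, from either Morrbid-deficient mice of C57BL6 background (KO; Morrbid is a long non-coding RNA of myeloid cells) or wild-type C57BL6 (WT) mice, with 1 ChIP-seq library for each mark and genotype. The labels give no age, number of animals or pooling. Every difference below is therefore a difference between 2 libraries, with no replicate check and no p-value.

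IL-3, IL-5 and GM-CSF each bind an alpha chain of their own (Il3ra, Il5ra and Csf2ra), which pairs with a common beta chain, Csf2rb. Mice carry a second, closely related beta chain, Csf2rb2, that serves the IL-3 receptor. The G-CSF receptor Csf3r works as a homodimer and is a mainstay of neutrophil production and survival. None of these receptors has a kinase of its own: Jak2 bound to their cytoplasmic tails phosphorylates STAT proteins, among them Stat5a and Stat5b downstream of the beta chain and Stat3 downstream of G-CSF. H3K4me3 lies at active promoters, H3K27ac at active promoters and enhancers, H3K4me1 at enhancers and H3K36me3 over transcribed gene bodies.

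The promoters of 3 of the receptors are printed because the results turn on them: Csf2rb2 had the clearest KO and WT difference, Csf3r the broadest H3K4me3 peak, and Il5ra no peak near its start. The windows run from 250 bases before to 50 bases after the annotated start and come from RefSeq on GRCm38.p6, a later build than the mm9 of the peaks. The table matched 9 of the 10 genes, Csf2rb being the one without an entry. Capitals mark exact matches, on either strand, to 4 motifs. TTCNNNGAA is a motif of STAT proteins, the factors that these receptors activate. GAGGAAGT is a motif of PU.1, a master regulator of myeloid differentiation. TTGCNNCAA is a motif of the C/EBP family, whose members drive granulocyte differentiation. AGATAA is a motif of the GATA family, known from eosinophils, mast cells and red cell precursors.
Csf2rb2, chr15:78305672-78305971, minus strand: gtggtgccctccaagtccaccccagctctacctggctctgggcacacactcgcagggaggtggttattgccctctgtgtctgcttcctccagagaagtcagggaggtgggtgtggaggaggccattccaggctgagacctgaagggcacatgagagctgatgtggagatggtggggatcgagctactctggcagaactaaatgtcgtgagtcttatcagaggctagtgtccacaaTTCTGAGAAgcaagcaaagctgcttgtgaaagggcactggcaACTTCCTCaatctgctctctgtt
Csf3r, chr4:126024409-126024708, plus strand: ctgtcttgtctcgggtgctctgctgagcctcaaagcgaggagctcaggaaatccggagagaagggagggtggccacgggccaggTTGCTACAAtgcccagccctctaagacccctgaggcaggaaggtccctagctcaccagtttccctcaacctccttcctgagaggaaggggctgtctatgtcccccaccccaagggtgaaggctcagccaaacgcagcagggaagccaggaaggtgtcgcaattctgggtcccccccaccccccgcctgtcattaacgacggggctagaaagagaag
Il5ra, chr6:106748988-106749287, minus strand: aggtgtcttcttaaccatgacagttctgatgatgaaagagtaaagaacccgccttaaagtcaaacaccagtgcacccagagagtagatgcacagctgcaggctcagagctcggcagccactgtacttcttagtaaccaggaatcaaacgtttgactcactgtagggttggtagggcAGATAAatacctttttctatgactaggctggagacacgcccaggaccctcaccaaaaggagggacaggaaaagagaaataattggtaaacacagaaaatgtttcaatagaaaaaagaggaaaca

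The Csf2rb2 window held the STAT motif from 15 bases before the start and, on the other strand, the PU.1 motif from 27 bases after it. The Csf3r window held the C/EBP motif from 166 bases before the start, and the Il5ra window held the GATA motif from 74 bases before it. These were the only matches among the 11 windows of the 9 genes. Among all 32851 promoters of the same length, 8.30% held the STAT motif, 3.20% the PU.1 motif, 2.08% the C/EBP motif and 11.2% the GATA motif. The windows also differed in CpG dinucleotides, with 3 in Csf2rb2, 4 in Il5ra and 9 in Csf3r, against 44 in Jak2 and a median of 7 over all promoters. A match describes letters in a window and is not a site of binding.

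Values are normalized reads, on the authors' scale. Reads inside peaks ranged from 10265524 to 14317664 in the 4 KO libraries, against 2250264 to 2669490 in the WT libraries of H3K4me3, H3K27ac and H3K4me1 and 11618230 in that of H3K36me3. For the first 3 marks the WT library thus limits the precision. A change is log2 of (KO + 1) over (WT + 1), centred on its median across the peaks of that mark. For a gene it was computed on the sum over all its peaks. The interval given with it is the exact 95% binomial interval on the recovered reads, which covers counting error only, and reads copied by PCR are not independent molecules. For H3K4me3, peaks at or above the median signal had a median change of 0.14, but this shift varied with the signal. The median change was 0.30 for peaks with a log2 mean near 5.25, 0.19 near 7.25, 0.01 near 8.75 and -0.02 near 9.25. For genes at or above the median signal it was 0.05, so centring on 0.14 lowers the strongest peaks and genes too far. The shift of peaks at or above the median was 0.06 for H3K27ac, 0.02 for H3K4me1 and -0.04 for H3K36me3.

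In KO cells the beta chain genes and Stat3 carried more H3K4me3, while Csf2ra, Csf3r, Jak2, Stat5a and Stat5b lay within the range of 90% of genes at or above the median signal in every mark with a peak under their name. In such bulk libraries, fewer cells of a type and less signal per cell cannot be told apart. At least 1.5-fold higher H3K4me3 was found for 2 of the 10 genes, Csf2rb2 and Il5ra, where 7.97% of all 18050 genes were, and 0 were at least 1.5-fold lower, where 11.4% of all genes were. At a smaller threshold, a log2 change of 0.32 either way, 4 were higher, the other two being Csf2rb and Stat3, against 19.7% of all genes, and 0 were lower, against 15.7%. For H3K27ac, 0 were 1.5-fold higher or lower, against 5.33% and 15.5% of 17391 genes, and at the smaller threshold 1 was higher (Csf2rb2, against 14.5%) and 0 lower (against 20.9%). For H3K4me1, 0 were 1.5-fold higher or lower, against 4.24% and 11.2% of 18929 genes, and at the smaller threshold 2 were higher (Csf2rb2 and Il5ra, against 11.1%) and 0 lower (against 17.0%). For H3K36me3 only 6 of the 10 had a peak under their own name. None of the 6 passed 1.5-fold, which 5.68% of 12745 genes did upward and 3.11% downward, or the smaller threshold, which 11.0% and 6.58% did. Most genes past these folds genome-wide have little signal. Of genes at or above the median signal, 0.720% had H3K4me3 at least 1.5-fold higher and 0.299% lower, and 7.97% and 3.21% passed the smaller threshold. The median change of the 10 genes was 0.15 for H3K4me3, -0.03 for H3K27ac and 0.05 for H3K4me1, against 0.07, 0.02 and 0.00 over all genes, and that of the 6 genes with H3K36me3 was -0.01 against -0.02.

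**Figure D1:**
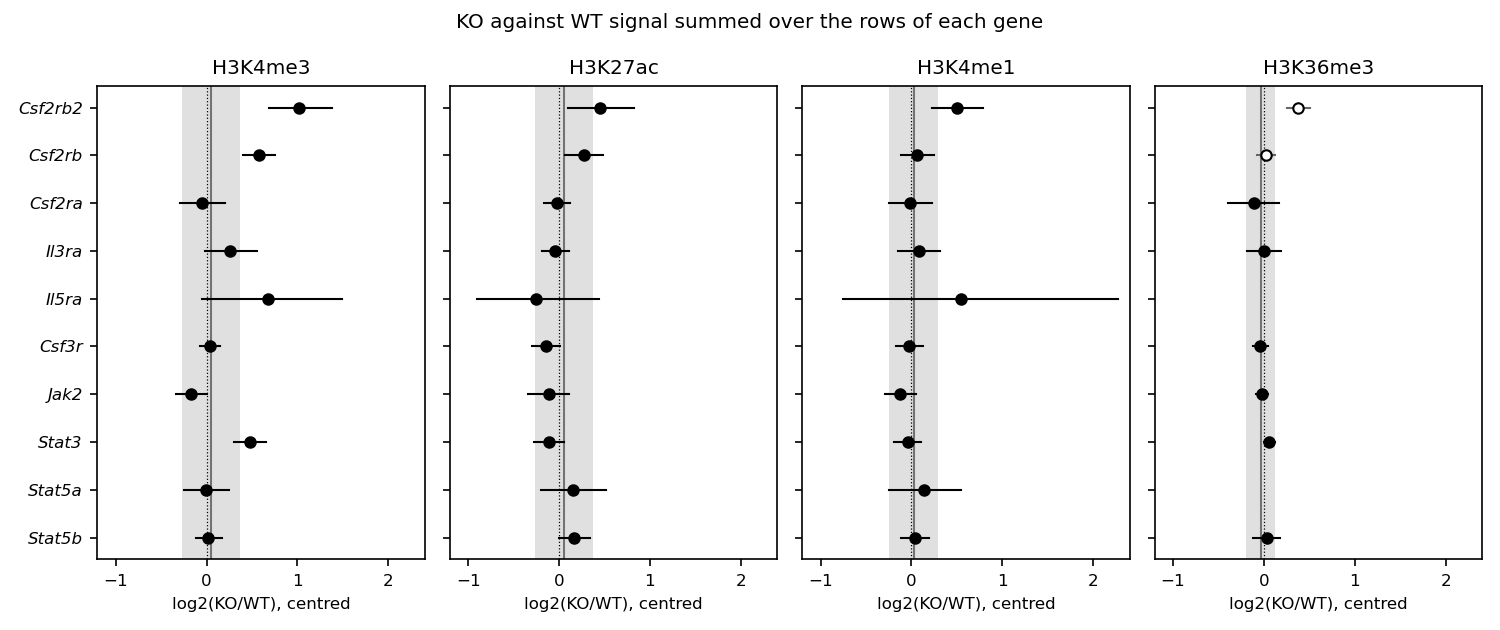
Centred log2(KO/WT) of the summed signal of each gene (points) with its exact 95% counting interval (lines), 1 panel per mark. The grey band holds the 5th to 95th percentile of genes at or above the median signal and the grey line their median. Open points are H3K36me3 peaks in the bodies of Csf2rb2 and Csf2rb that carry another gene's name. Csf2rb2 lies right of the band in all 4 panels, and Csf2rb, Stat3 and, with a wide interval, Il5ra lie right of it for H3K4me3.

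Csf2rb2, the IL-3 receptor beta chain, had more of all 4 marks in KO cells. Its H3K4me3 was 378 normalized reads in KO cells against 184 in WT cells, a 2.03-fold difference (change 1.02, interval 0.68 to 1.39) on 582 against 78 reads. By change it ranked 2 of the 9025 genes whose signal reached the median. That median was 247 normalized reads, so Csf2rb2 lay near the lower end of this set. Against the running median of genes of like signal its change was 0.92. Most of its H3K4me3 came from the peak over the start, on chromosome 15 (mm9) from 78130084 to 78137960, with 343 normalized reads in KO cells and 165 in WT cells. H3K27ac was 279.6 against 204 normalized reads (0.45, interval 0.10 to 0.83), rank 216 of 8696 genes, and 260.5 against 201.0 in the peak over the start (0.37, interval 0.01 to 0.75). The change of that start peak lay under 0.46, the 95th percentile of all H3K27ac peaks of similar mean. The remaining H3K27ac peak, in an intron, had 31 reads against 1, the smallest value of the WT library. H3K4me1 was 589 against 414 normalized reads (0.50, interval 0.23 to 0.78), rank 47 of 9465 genes. The H3K36me3 peak over its body, from 78112864 to 78134748, carries the name of the microRNA gene Mir7676-2, whose annotated start is nearer. It held 1127 normalized reads in KO cells and 862 in WT cells (0.38, interval 0.25 to 0.51), on 1205 against 803 reads. When H3K36me3 was summed over gene bodies instead of names, this was rank 10 of 5270 genes at or above the median.

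Csf2rb, the shared beta chain, had more H3K4me3 and, less clearly, more H3K27ac. Its H3K4me3 was 1117 normalized reads in KO cells and 739 in WT cells, a 1.49-fold difference (0.58, interval 0.41 to 0.76), rank 69 of 9025. The peak over its start, from 78153549 to 78164574, held 1073 against 718 normalized reads. H3K27ac was 739 against 611 normalized reads (0.27, interval 0.06 to 0.48), inside the range of 90% of genes at or above the median, whose 95th percentile was 0.37. H3K4me1, at 1082 against 1029 normalized reads, had a change of 0.06 (-0.11 to 0.24). Farther into the gene, an intronic H3K4me3 peak under another name, Mir7676-2, held 48.7 against 23.5 normalized reads (interval of the change 0.08 to 2.15), on 75 against 10 reads. The H3K36me3 peak over the body of Csf2rb, also under the name Mir7676-2, held 1602 against 1571 normalized reads (0.02, interval -0.08 to 0.12). The H3K36me3 intervals of Csf2rb2 and Csf2rb do not overlap, whereas their H3K4me3 intervals do.

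The 2 beta chain genes lie head to head on chromosome 15, with starts 20.3 kb apart by the deposited distances, Csf2rb2 reading one way and Csf2rb the other. In the space between the starts, an H3K4me1 peak 9.88 kb upstream of Csf2rb2 held 47.9 normalized reads in KO cells and 20.4 in WT cells, on 81 against 6 reads, with a change of 1.19 (interval 0.04 to 2.71). An H3K4me1 peak upstream of Csf2rb, from 78148936 to 78156355, held 521 against 462 normalized reads (0.17, interval -0.10 to 0.44). Csf2rb2 and Csf2rb are close relatives in sequence, and the sources used here do not give how reads that match both were placed, so a part of either signal may belong to the other. The differences of the 2 genes are in this sense not independent.

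**Figure D2:**
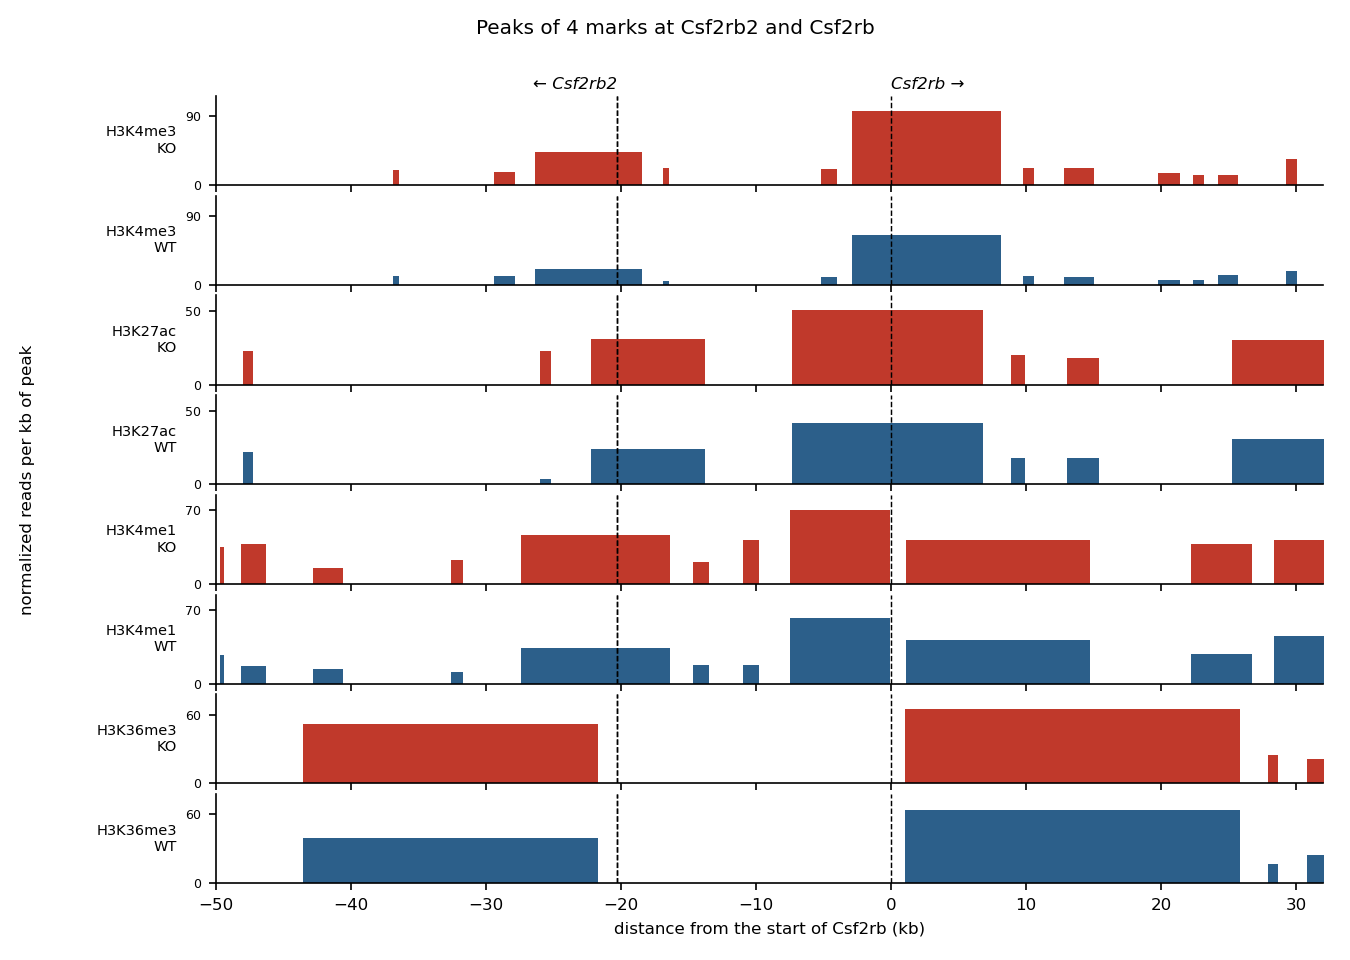
Peaks of the 4 marks around Csf2rb2 and Csf2rb, with distance from the start of Csf2rb (kb) across and normalized reads per kb of peak upward, KO (red) above WT (blue) on the same scale for each mark. Dashed lines are annotated starts and arrows the direction of transcription. The KO bars stand higher at Csf2rb2 in all 4 marks, with 43.5 against 20.9 normalized reads per kb at its H3K4me3 start peak, while the H3K36me3 bars over Csf2rb are level at 64.6 against 63.3.

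The alpha chain genes differed among themselves. Csf2ra, which binds GM-CSF, had 410 normalized reads of H3K4me3 in KO cells against 419 in WT cells (-0.05, interval -0.29 to 0.20), 1398 against 1415 of H3K27ac (-0.02, interval -0.16 to 0.12) and 608 against 611 of H3K4me1 (-0.01, interval -0.24 to 0.22). Its H3K36me3, at 209 against 224 normalized reads, had a change of -0.11 (-0.39 to 0.17). An 8.47 kb H3K27ac peak over its start, on chromosome 19 from 61301125 to 61309590, held 1193 normalized reads in KO cells and 1280 in WT cells. Per kb of peak, the H3K27ac of Csf2ra was 118 in KO cells and 120 in WT cells, within the top 3.20% and 3.17% of all genes. A distal H3K27ac peak 16.5 kb upstream stood apart, with 129 against 74.3 normalized reads (0.79, interval 0.21 to 1.43) on 27 WT reads, where the H3K4me1 peak at the same place had 221 against 217 (0.02). In its body, 2.59 kb from the start, an H3K4me1 peak went the other way, with 57.4 against 98.5 normalized reads (-0.78, interval -1.40 to -0.13) on 29 WT reads.

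Il3ra, the IL-3 alpha chain, had H3K4me3 of 351 normalized reads in KO cells and 289 in WT cells (0.26, interval -0.02 to 0.56), and 254 against 235 in the peak over its start, on chromosome 14 from 15178143 to 15184161 (0.10). Most of the remaining difference came from a peak 131 kb downstream with 69.4 against 35.3 normalized reads, on 15 WT reads. Its change of 0.94 lay under 0.97, the 95th percentile of all H3K4me3 peaks of similar mean. H3K27ac at the start was 669 against 708 normalized reads (-0.08), and H3K36me3 over the body was 276 against 266 (0.05, interval -0.20 to 0.29). H3K4me1 was 647 against 608 normalized reads in all (0.08, interval -0.15 to 0.32), but its direction depended on the peaks taken, with -0.28 in a window around the gene and 0.84 for the peak at the start, which had 2 WT reads. Most peaks named for Il3ra, 9 of 12 for H3K27ac and 8 of 10 for H3K4me1, lie over 50 kb from its start.

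Il5ra, the IL-5 alpha chain that is best known from eosinophils, had no peak of any mark within 5 kb of its start and none of H3K36me3 under its name. What it had was an intronic peak 23 kb into the gene, on chromosome 6 between 106675481 and 106676609. There H3K27ac was 55.4 normalized reads in KO cells and 66.1 in WT cells (-0.25, interval -0.92 to 0.46), H3K4me3 68.1 against 40.0 (0.74, interval 0.01 to 1.59) and H3K4me1 24.9 against 13.6. These rest on 24, 17 and 4 WT reads. With a near-empty peak 109 kb away that carries its name, the sums of Il5ra were 68.8 against 42.4 normalized reads for H3K4me3 (0.67, interval -0.05 to 1.49) and 25.4 against 17.0 for H3K4me1 (0.55, interval -0.76 to 2.27), both with intervals that include 0. Against the running median of genes of like signal the H3K4me3 change was 0.39, under 1.5-fold. The H3K27ac and H3K4me1 differences were not detectable at this depth, and the interval for H3K4me3 at the intronic peak ends close to 0. The change of that H3K4me3 peak, 0.74, also lay under 0.97, the 95th percentile of all H3K4me3 peaks of similar mean. Il5ra was also the 1 gene of the 10 below the median signal of all genes in each of the 3 marks.

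Csf3r, the G-CSF receptor, had the broadest H3K4me3 peak of the genes described here and differed little between KO and WT cells. Its H3K4me3 peak, on chromosome 4 from 125698168 to 125715340, was 17.2 kb wide, rank 139 of 53500 peaks in width. It ran from 3.73 kb before the start to 13.4 kb into the gene and held 1963 normalized reads in KO cells and 1883 in WT cells. Summed over all its peaks, H3K4me3 was 2158 against 2083 normalized reads (0.04, interval -0.07 to 0.14, and -0.10 when centred on peaks at or above the median). H3K27ac was 1033 against 1139.7 normalized reads (-0.14, interval -0.30 to 0.01), H3K4me1 1468 against 1488 (-0.03, interval -0.17 to 0.12) and H3K36me3 2129.7 against 2176 (-0.04, interval -0.12 to 0.05). With this centre, a log2 change of 0.32 in either direction lies outside all 4 intervals. For H3K27ac that depends on the centre. Its change was -0.21 when centred on peaks at or above the median and -0.17 against the running median, and the interval moves down with it.

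Broad H3K4me3 that reaches into a body also marked by H3K36me3 was found at 5 of the 6 receptor genes, Il5ra having no peak at its start. Of the Csf3r peak, 93.8% of the length (16.1 kb) was also covered by H3K36me3 peaks. These include a peak upstream of the start, from 125696349 to 125701240, so the share covered by the body peak alone is smaller. The shares for the start peaks of Il3ra, Csf2rb, Csf2rb2 and Csf2ra were 77.0%, 64.3%, 59.2% and 55.4%. Stat3 had 75.4% and the downstream start of Stat5b 55.3%, whereas Jak2 had 1.80% and Stat5a and the upstream start of Stat5b 0%. Among all 12937 H3K4me3 peaks over a start, 9.35% were covered over 50% or more of their length, and the median was 0%. The peaks of these genes are wider than most, at 2.38 to 17.2 kb against a median of 2.29 kb, and width was not held equal in this comparison.

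Jak2, the kinase of these receptors, had slightly less of all 4 marks in KO cells by value, none past a log2 change of 0.32. For H3K36me3 the sign turned with the centre, at 0.02 when centred on peaks at or above the median. The H3K4me3 change was -0.31 when centred on peaks at or above the median and -0.20 against the running median of genes of like signal. The H3K4me1 peak nearest to the start was higher in KO cells (0.19, interval -0.55 to 1.02). H3K4me3 was 833 normalized reads in KO cells and 925 in WT cells (-0.17, interval -0.33 to -0.00012), H3K27ac 517 against 559 (-0.11, interval -0.34 to 0.11) and H3K4me1 1052 against 1141 (-0.12, interval -0.29 to 0.05). H3K36me3 was 3510.2 against 3545 normalized reads in all (-0.02, interval -0.09 to 0.05). Of this, the 62.4 kb peak that covered the gene, on chromosome 19 from 29328748 to 29391163, held 3435 against 3465. The H3K4me1 upstream of Jak2 was split over 9 peaks up to 53.8 kb from its start. The strongest of these, 10.9 kb upstream, held 243 against 245 normalized reads.

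Stat3, the STAT of G-CSF signalling, differed between marks. Its H3K4me3 was 1075 normalized reads in KO cells and 763 in WT cells (0.48, interval 0.31 to 0.66), rank 144 of 9025, and 0.34 when centred on peaks at or above the median. The start peak, on chromosome 11 from 100791398 to 100801768, held 877 against 642 normalized reads (0.43), and an intronic peak 22.9 kb into the gene 138 against 82.4 (0.72, interval 0.20 to 1.29). H3K27ac did not follow, with 949 against 1021 normalized reads in all (-0.11, interval -0.27 to 0.06) and 632 against 738 at the start (-0.23, interval -0.42 to -0.03). The intervals of the 2 marks do not overlap. H3K4me1 was 1417 against 1451 normalized reads (-0.04, interval -0.19 to 0.11).

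Stat5a and Stat5b, the STATs of the beta chain receptors, had changes between -0.01 and 0.17 in the marks measured under their names. For H3K4me3, Stat5a had 410 normalized reads in KO cells and 407 in WT cells (-0.01, interval -0.25 to 0.24) and Stat5b 1219.5 against 1188 (0.02, interval -0.12 to 0.17). Centred on peaks at or above the median, these were -0.15 and -0.12, so neither sign at H3K4me3 is settled. Stat5b is annotated with 2 starts 28.0 kb apart. The upstream start peak held 728 against 772 normalized reads of H3K4me3 (-0.10) and 437 against 476 of H3K27ac (-0.13), while the downstream start peak held 376 against 325 (0.19) and 355 against 269.8 (0.39, interval 0.08 to 0.72). For H3K27ac as a whole, Stat5a had 245 against 220.2 normalized reads (0.15, interval -0.20 to 0.52) and Stat5b 1043 against 928 (0.17, interval -0.00 to 0.34). An intronic H3K27ac peak of Stat5b had 88.1 against 49.6 normalized reads (0.81, interval 0.12 to 1.62), on 18 WT reads.

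The 3 STAT genes lie side by side on chromosome 11, so H3K36me3 could not be given gene by gene. A peak of 75.7 kb, from 100723505 to 100799213, begins 1.71 kb past the start of Stat5a and ends 1.61 kb short of the start of Stat3. It spans the bodies of both genes and is named for Stat3 alone. It held 4356 normalized reads in KO cells and 4174 in WT cells (0.05, interval -0.01 to 0.12). A large part of the body of Stat5b lies under a 36.6 kb peak named for its neighbour Ghdc, with 2122 against 2269 normalized reads (-0.10, interval -0.19 to -0.02). The 6 smaller H3K36me3 peaks named for Stat5b summed to 756 against 737 normalized reads (0.03, interval -0.12 to 0.18).

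**Figure D3:**
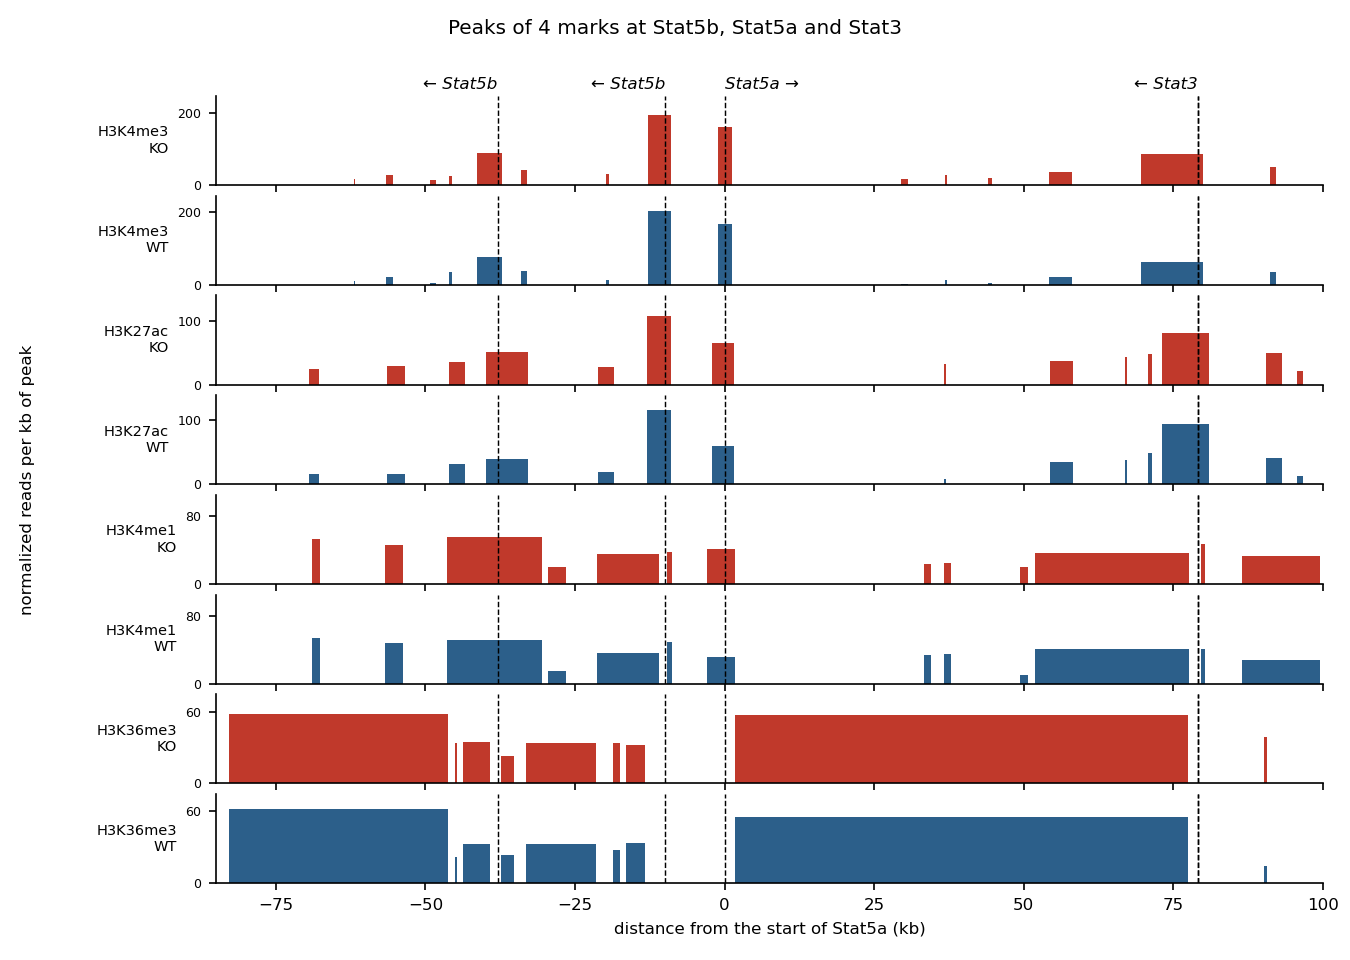
Peaks of the 4 marks around Stat5b, Stat5a and Stat3, with distance from the start of Stat5a (kb) across and normalized reads per kb of peak upward, KO (red) above WT (blue) on the same scale for each mark. Dashed lines are annotated starts and arrows the direction of transcription. The H3K36me3 bar from Stat5a to Stat3 is unbroken and level between the libraries, at 57.5 against 55.1 normalized reads per kb.

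Per kb of peak, Jak2 had the highest H3K4me3 level of the 10 genes in both genotypes, at 127 normalized reads per kb in KO cells and 141 in WT cells. Stat5a (106 and 105), Csf3r (99.4 and 96.0) and Stat5b (99.0 and 96.5) followed, and their exact Poisson counting intervals overlap one another. These levels pool all peaks under a name, weak distal ones included. At the start peaks alone, Jak2 had 193.6 in KO cells and 219.5 in WT cells, close to 193.3 and 205.1 at the upstream start of Stat5b. Csf2rb had 85.4 in KO cells and 56.5 in WT cells, so that it stood above Csf2ra (75.0 and 76.6) in KO cells and below it in WT cells. In WT cells, Csf2rb2 had 18.7 (interval 14.8 to 23.3), under Il3ra at 28.9 (24.0 to 34.4) but overlapping the wide interval of Il5ra (30.5, 18.1 to 48.2), whereas in KO cells its 38.5 (35.4 to 41.8) overlapped the 35.0 (32.1 to 38.1) of Il3ra. For H3K27ac, Csf2ra was highest in both genotypes, and Csf2rb2 had the lowest value, 30.0 in KO cells, where its interval overlaps that of Il5ra, and 21.8 in WT cells. For H3K4me1, Csf2rb and Csf3r led, at 51.5 and 50.5 in KO cells and 49.0 and 51.2 in WT cells. Il5ra had the lowest value for that mark, 18.7 in KO cells and 12.5 in WT cells, where its interval of 4.06 to 29.1 overlaps others. For H3K36me3, Csf3r had 59.1 in KO cells and 60.4 in WT cells, and its KO interval overlaps that of Stat3 (57.4 in KO cells and 54.8 in WT cells).

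**Figure D4:**
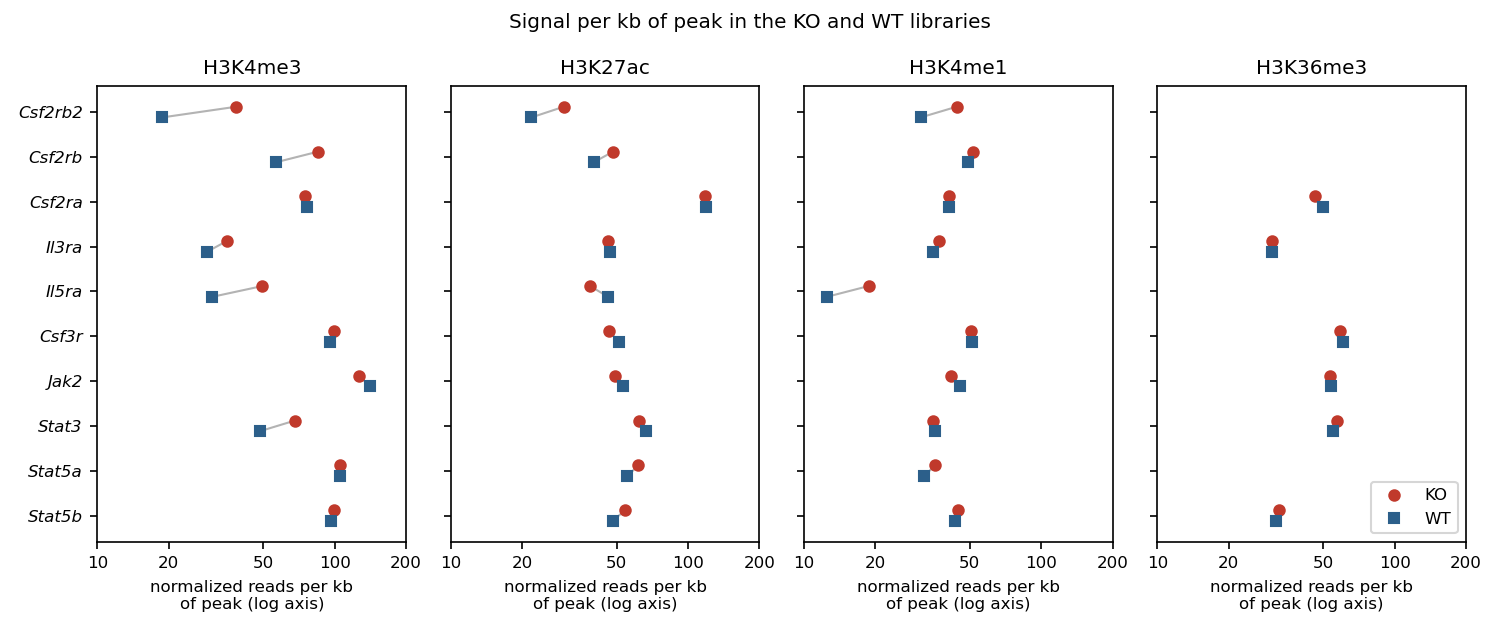
Normalized reads per kb of peak (log axis) of each gene in KO (red circles) and WT (blue squares) libraries, 1 panel per mark. The H3K4me3 level of Csf2rb2 is 38.5 in KO cells, beside Il3ra, against 18.7 in WT cells, while Csf3r and the Stat5 genes have nearly equal levels in both.

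The widest changes were found among weak peaks. Of the 12 H3K4me3 peaks with a mean of 100 or more normalized reads, the changes ran from -0.20 to 1.04, and over all 39 from -1.04 to 2.50. Past a log2 change of 0.32 were 4 of the 12, the start peaks of Csf2rb2 (1.04), Csf2rb (0.56) and Stat3 (0.43) and the intronic peak of Stat3 (0.72). Among all H3K4me3 peaks of similar mean, the 95th percentile was 0.55 for the Csf2rb2 peak and 0.32 for the Csf2rb and Stat3 start peaks. For the Stat3 intronic peak it was 0.72, so that peak lay at the edge of the range. For peaks with a mean of 100 or more in the other marks, the ranges were -0.25 to 0.79 over 14 H3K27ac peaks, -0.39 to 0.46 over 21 H3K4me1 peaks and -0.26 to 0.10 over 11 H3K36me3 peaks. Under 10 WT reads were found in 20, 15, 19 and 4 of the peaks of H3K4me3, H3K27ac, H3K4me1 and H3K36me3. At 1 read in each library, the smallest value of each column, were 3 H3K4me3 peaks and 1 H3K4me1 peak, so that their ratio reflects only the scaling of the 2 libraries.

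**Figure D5:**
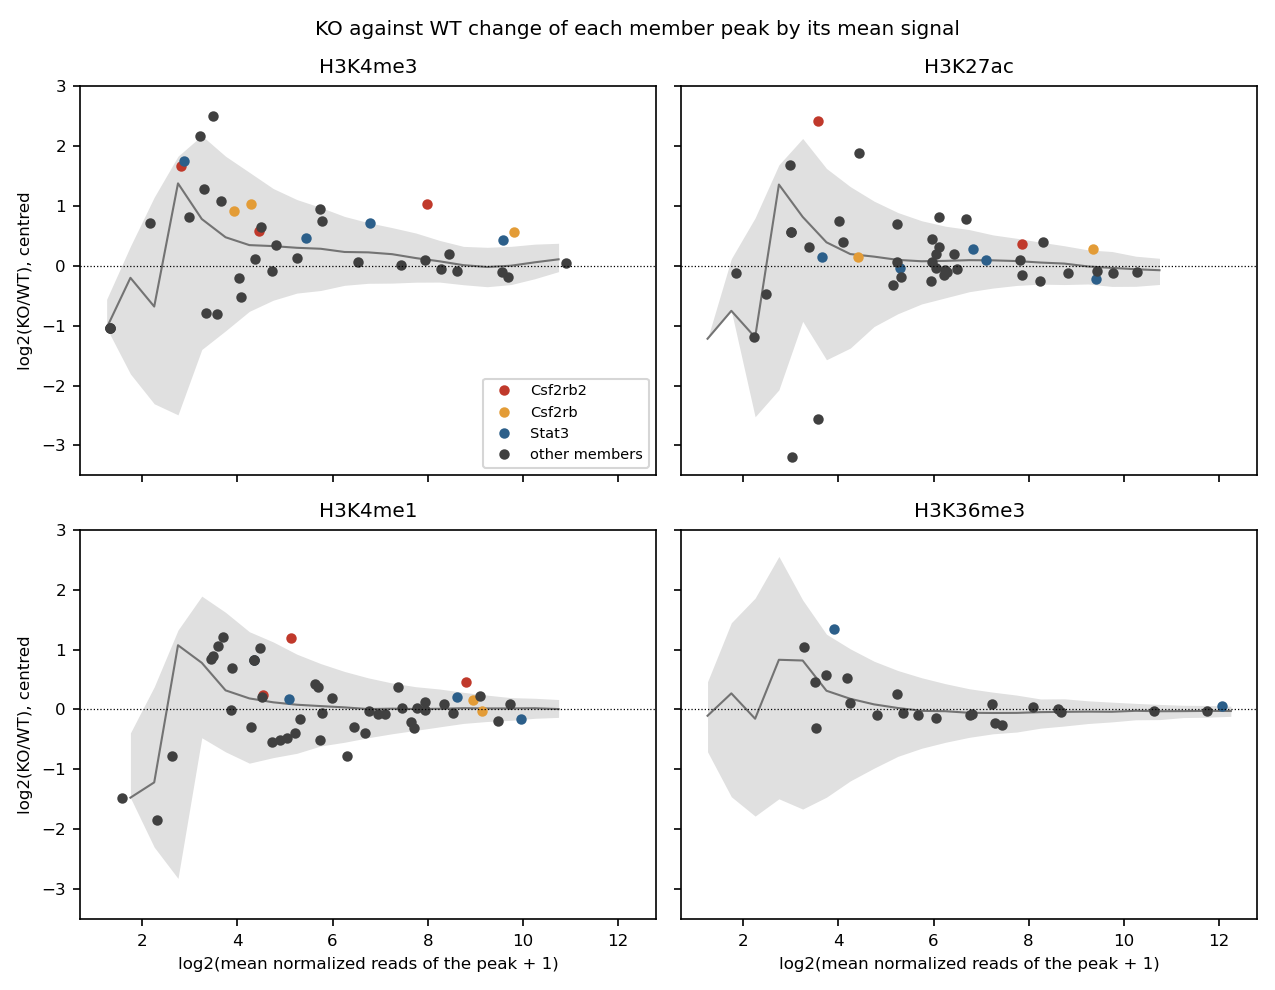
Centred log2(KO/WT) of each peak of the 10 genes against log2 of its mean normalized reads plus 1, 1 panel per mark. The grey band holds the 5th to 95th percentile of all peaks in bins of similar mean and the grey line their median. The Csf2rb2 start peak stands above the band for H3K4me3, at 1.04, and most other strong peaks lie within it.

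Markers were read from peaks within 5 kb of starts, by the deposited distances, to see which cells the libraries could hold. These distances run from peak centres, so a broad peak that reaches a start can be missed. Of 10 neutrophil markers, 6 had an H3K4me3 peak there, summing to 11488 normalized reads in KO cells and 10014 in WT cells (change of the sum 0.18). S100a8, S100a9, Ly6g and Ltf had none so placed. At any distance, 8 of the 10 had H3K4me3 peaks under their names, summing to 21401 against 17924 normalized reads. Of 9 eosinophil marker names, 1 had such a peak (Siglec5), at 62.3 against 56.5 normalized reads, and Ccr3, Epx, Prg2 and Prg3 had none. Their H3K27ac summed to 458 against 457 over 5 of 9, with Epx and Prg3 again without a peak. Of these, Ccr3 (30.8 against 13.8 normalized reads) and Prg2 (35.7 against 13.8) were higher in KO cells by value, Ear1 (27.1 against 41.3) and Ear2 (33.3 against 57.8) lower and Siglec5 level (331 against 330.4), with 5 to 21 WT reads for all but Siglec5. Of 8 basophil and mast cell markers, 2 had one, Hdc and Gata2, summing to 1181 against 901 (0.37), while Mcpt8, Cpa3, Fcer1a, Ms4a2, Tpsb2 and Cma1 had none. Their H3K27ac summed to 612 against 573 over 2 of 8 (0.09), with Hdc at 592 against 569.9 and Mcpt8 at 19.7 against 2.75, on 32 against 1 reads. Monocyte and macrophage markers summed to 1325 against 1266 normalized reads over 5 of 8 (0.05), B cell markers to 197 against 158 over 3 of 5 (0.31) and T cell markers to 217 against 217 over 2 of 6 (-0.01). Of the basophil and mast cell markers, H3K4me3 of Hdc (674 against 442 normalized reads) and of Gata2 (507 against 459) and H3K27ac of Mcpt8 were higher in KO cells. H3K27ac of Hdc differed little, and Cpa3, Fcer1a, Ms4a2, Tpsb2 and Cma1 had no peak of either mark there. Summed over all peaks under the listed names, H3K4me3 was 1732 against 1372 normalized reads and H3K27ac 3787 against 4449. The beta chain genes are also used by basophils and mast cells. Their part in the difference at the beta chain genes was not tested.

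The wider pathway was read from 87 further gene names, chosen as ligands, related receptors, kinases and other STATs, adaptors, inhibitors and targets. Of the 83 with an H3K4me3 peak, 4 were at least 1.5-fold higher in KO cells and 2 lower, against 7.97% and 11.4% of all genes, and their median change was 0.14. The counts were 3 higher and 5 lower of 84 for H3K27ac (median 0.06), against 5.33% and 15.5% of all genes. They were 1 and 0 of 84 for H3K4me1 (0.01), against 4.24% and 11.2%, and 2 and 2 of 73 for H3K36me3 (0.02), against 5.68% and 3.11%. Of the 83, 70 were at or above the median signal, where fewer genes pass these folds, and the shares were not tested against those of other genes. By group, the H3K4me3 medians were 0.27 for related receptors (18 measured), 0.21 for ligands (2), 0.20 for kinases and other STATs (13), 0.15 for targets (12), 0.07 for inhibitors (21) and -0.07 for adaptors (17).

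Among pathway genes at or above the median signal, Flt3, the receptor of early progenitors, and Il4ra, the interleukin-4 receptor chain, had the highest H3K4me3 changes. Flt3 had 295 normalized reads in KO cells and 207 in WT cells (0.49, interval 0.16 to 0.84) and Il4ra 1387 against 993 (0.47, interval 0.32 to 0.62). Gab2, a scaffold of the PI3K arm, had 388 against 513 normalized reads of H3K4me3 (-0.42, interval -0.64 to -0.19). Socs7, of the suppressor of cytokine signalling family, had 271 against 440.5 of H3K27ac (-0.70, interval -0.97 to -0.43) and 646 against 834 of H3K36me3 (-0.37, interval -0.52 to -0.22), and was near the bottom for H3K4me1 too (-0.31, interval -0.66 to 0.05), beside Pias3 (-0.32). Lifr (0.54) and the kinase Tyk2 (0.53) were highest for H3K27ac, on 65 and 52 WT reads. Il6st (0.39) and Btk (0.39) were highest for H3K4me1. For H3K36me3, the ubiquitin ligase Cbl (0.22) and Il4ra (0.13) were highest, and Ccnd3, a cyclin gene, had 1608 against 1834 normalized reads (-0.20, interval -0.29 to -0.10).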

How the data were processed

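ChIP-seq signal of 4 histone marks was read for KO and WT neutrophils; the 2 samples titled as input DNA were left aside. The submitters' processing notes name mm9, Bowtie2 2.2.3, MACS2 2.1.0, HOMER, DiffBind, Trimmomatic 0.32, R 3.1.1 and bcl2fastq 2.16.0, and give neither roles nor settings. Whether input was subtracted is unknown from these sources. The authors deposited, for each mark, consensus peaks with a normalized signal per library and a log2 fold, which equals log2(KO/WT) of the signals. Dividing each deposited column by its smallest value gave whole reads throughout (tolerance 0.01), and these were taken as read counts. A count of 1 is therefore the smallest value of its column. Whether it is a true single read or a floor set in processing is unknown from these sources. With 1 library per group no count model or test could be fitted.

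Changes used a pseudocount of 1 and the median of all peaks as centre, and no filter on low values. Gene names are the deposited ones. Peaks in gene bodies were found from the deposited transcript annotation, with symbols from RefSeq (GRCm38.p6), and mm9 starts from peak centres and deposited distances. Thresholds were 1.5-fold and a log2 change of 0.32. The genes, lists and motifs were chosen with earlier results of these data known. The text names all 10 genes and, of the pathway genes at or above the median signal, the 2 highest and 2 lowest per mark and any past 1.5-fold, except for an item that is not reported here. Alternatives changed the pseudocount, centring, read minimum and peaks summed. The steps were tested on simulated reads. The software was scipy 1.17.1, numpy 2.4.6, pandas 2.3.3 and matplotlib 3.10.9 under Python 3.11.15.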

Additional observations from a re-analysis of the deposited data

How the results depend on the processing

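The settings were pseudocount 5 or none, 3 other centrings, a minimum of 10 reads per peak, peaks in a window around the start, the nearest peak only and, added after the data were seen, H3K36me3 summed over bodies. The 2 changes past 1.5-fold kept their direction. Of 292 single-gene values, 12 moved by more than their counting error, 9 of them with the nearest peak only. That setting turned the H3K4me1 direction of Csf3r (0.22), Stat3 (0.18) and Jak2 (0.19), and windows that of Il3ra (-0.28). The H3K4me3 change of Csf2rb2 ranged from 0.88 to 1.06, its H3K27ac change from 0.37 to 0.45 and its H3K4me1 change from 0.46 to 0.51. For H3K4me3, Csf2rb ranged from 0.44 to 0.60 and Stat3 from 0.34 to 0.49. Genes at least 1.5-fold higher for H3K4me3 numbered 1 with the strong-peak centre, with the running median and with windows, where Il5ra has no peak, and 3 with no centring, where Csf2rb also passed. For H3K4me1 they numbered 1 with the running median, with windows and with 10 reads, and 2 with the nearest peak, where 1 was 1.5-fold lower, 4 were higher and 1 lower by a log2 change of 0.32. For H3K36me3 the nearest peak gave 1 gene past both thresholds (Stat3, from a peak of 7 WT reads upstream of its start) and a median of -0.16, and bodies gave 1 past the smaller threshold (Csf2rb2). No paired analysis was possible because each mark and genotype has 1 library. WT depth limits weak peaks of the first 3 marks.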

Other observations

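Narrow peaks with almost no reads recur, within a few bases, in 3 tables near these genes. On chromosome 6 (mm9), an interval from 106590118 to 106590590 named for Il5ra had 1 read in each library for H3K4me3 and for H3K4me1, and 4 against 1 for H3K27ac. On chromosome 14, 15293566 to 15294037 named for Il3ra had 1 read in each library for H3K4me3, 2 in each for H3K4me1 and 6 against 2 for H3K27ac. On chromosome 19, 29292957 to 29293421 named for Jak2 had 1 in each for H3K4me3, 6 against 2 for H3K4me1 and 3 against 2 for H3K27ac. Over all peaks, 12126 of 53500 H3K4me3 peaks (22.7%), 8114 of 67733 H3K27ac peaks and 6723 H3K4me1 peaks (8.20%) were at 1 read in both libraries, with a median width of 463, 462 and 461 bases, against 1187, 1229 and 1394 bases for the other peaks. For H3K36me3 it was 563 of 43255 (1.30%).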
